A study of Mus musculus with 16 samples.

Results

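Glycolysis and glycogen metabolism were followed through 39 listed genes in mouse hamstring muscle, from glucose and lactate carriers to the enzymes of glycolysis, glycogen breakdown and glycogen synthesis, with 3 subunits of AMP-activated protein kinase. A member was any listed gene whose symbol matched a symbol in the array's table exactly. The table holds 25697 probes for 18097 gene symbols, and 52 of those probes carry the symbols of 35 members. Hk2, Gpi1, Ldhb and Prkaa1 had no matching row and were not analysed here. Of the 35 genes, 32 had a probe detected on at least 3 arrays, with 46 such probes. The probes of Gbe1 and Pfkfb1 were detected on 0 arrays and that of Pgk1 on 2 arrays, so these genes were not tested.

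The study compared 4 groups of female mice, each with 4 Illumina BeadChip arrays, to ask which genes accompany neurogenic heterotopic ossification, bone that forms in muscle after damage to the spinal cord. SCI+CDTX mice had a spinal cord injury (SCI) between vertebrae T12 and T13 and received cardiotoxin (CDTX), a fibre-lysing component of snake venom, in the hamstring. The other groups were SCI+Saline, the same injury with saline in the muscle, and Sham+CDTX and Sham+Saline, sham surgery with either injection. Per the series' design, ossification develops in SCI+CDTX alone. Every muscle was sampled 2 days after surgery, so all groups had surgery and an injection. Strain and age are not given in the sources used here. The titles number the samples of a group as mice and say nothing of pooling, and p-values measure the spread between these arrays.

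Glucose enters a fibre through membrane carriers, is phosphorylated and split, and is carried through a chain of enzymes to pyruvate and lactate. Skeletal muscle stores glucose as glycogen, which phosphorylase, switched on by phosphorylase kinase, releases during contraction. Many of these steps have an isozyme that prevails in muscle and others that prevail in further tissues, and leukocytes that enter damaged muscle carry their own set.

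The arrays passed several checks with exceptions that touch these genes. Mean raw intensity per array ranged from 230.5 to 373.1, and 11114 to 13694 probes were detected per array, lowest in Sham+Saline. The authors left SCI+CDTX replicate 2 out of their final analysis, and it was left out of the fit here, which leaves 3 arrays in SCI+CDTX and 4 in each other group. All SCI arrays lie on one slide and all sham arrays on another, so surgery and slide cannot be told apart. CDTX and saline arrays lie at different positions on each slide, so injection and position cannot be told apart either. In genes with several probes, the difference between the 2 brightest probes, summarised over 2786 genes other than the members as a first principal component, put the arrays into separate sets. This probe difference score was 3.46 to 3.89 on the Sham+CDTX arrays and 2.82 on SCI+CDTX replicate 2, against -2.65 to -0.59 on the other 11 arrays. Comparisons with Sham+CDTX were therefore also fitted on all 16 arrays with the score as a covariate, a fit in which score and group differ through SCI+CDTX replicate 2 alone.

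Macrophage markers rose with CDTX after both surgeries, and the levels of the other marker lists are given by group. The mean log2 level of 16 macrophage markers was 9.82 to 10.38 in SCI+CDTX and 10.23 to 10.42 in Sham+CDTX, against 6.63 to 8.54 in SCI+Saline and 6.52 to 7.12 in Sham+Saline. All 16 rose with CDTX after either surgery. The mean of 14 muscle fibre markers was 13.21 to 13.45 in SCI+CDTX, 13.40 to 13.61 in SCI+Saline, 13.46 to 13.66 in Sham+CDTX and 13.70 to 13.82 in Sham+Saline. The mean of 9 neutrophil markers was 7.21 to 7.73 in SCI+CDTX, 5.69 to 8.69 in SCI+Saline, 5.78 to 6.28 in Sham+CDTX and 4.61 to 8.84 in Sham+Saline. The 6 fibroblast markers averaged 9.98 to 10.32, 8.96 to 9.61, 10.71 to 10.90 and 9.17 to 10.52 in the same order of groups. Endothelial markers (5 genes) averaged 6.78 to 7.09, 6.53 to 6.86, 6.78 to 6.90 and 7.23 to 7.53, red cell markers (3 genes) 8.28 to 9.33, 9.19 to 10.25, 8.33 to 9.12 and 8.57 to 10.61, and adipocyte markers (3 genes) 10.27 to 10.57, 9.30 to 10.68, 8.94 to 9.92 and 10.26 to 10.55. Of the 5 endothelial markers 4 fell with SCI in saline muscle, with a median log2 fold change of -0.71, the comparison in which 17 members fell. The part of these cells in the results below was not tested, and in whole muscle fewer cells of a type and less RNA per cell cannot be told apart.

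Levels below are log2 normalized intensities of a gene's brightest detected probe, and a gene changed when its Benjamini-Hochberg adjusted p over all tested probes was under 0.05. After SCI, CDTX changed 18 of the 32 members, 8 upward and 10 downward, and their median log2 fold change was -0.30 against -0.04 over all genes. Over the 10936 genes tested, 44.3% changed, 22.1% upward and 22.2% downward, so the share of members is not far above the background. The downward count differed between settings: median scaling of each array, which moved the median of all genes from -0.04 to 0.07, gave 8 upward and 15 downward, leaving out SCI+CDTX replicate 3 gave 8 and 6, leaving out replicate 4 gave 7 and 7, and the authors' deposited table of final values gave 8 and 5. After sham surgery CDTX changed 21 members, 8 upward and 13 downward, where the 8 include Aldoc, which passed the detection filter only through Sham+CDTX, with a median of -0.28 against -0.05. The background there was 50.6%, with 23.8% upward and 26.8% downward. Scaling each array to its median in place of quantile normalization gave 9 members upward and 8 downward after sham surgery, with the median of all genes moved from -0.05 to 0.35.

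SCI without CDTX lowered 17 of the 32 members and raised 0 by limma's test, and at an unadjusted p under 0.05 also 19 were lower and 0 higher. The background was 30.6% of genes, 14.7% upward and 15.8% downward, so the downward share of members was above that of all genes. The median log2 fold change was -0.55 against -0.02 over all genes. Median scaling gave 2 members upward and 10 downward, with the median of all genes moved from -0.02 to 0.18; the 2 upward were Gyg (0.64) and Ugp2 (1.01). In CDTX muscle, SCI raised 2 members and lowered 11, against a background of 32.2%, with 16.5% upward and 15.7% downward. The interaction, which is the CDTX effect after SCI minus the CDTX effect after sham surgery, was called for 10 members, 6 positive and 4 negative, against 25.5% of all genes, 13.9% positive and 11.7% negative. This share of members is not far above the background. Under median scaling the split was 3 positive and 5 negative, with the median of all genes moved from 0.01 to -0.24.

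When the fit on 16 arrays included the probe difference score, 13 members were called for CDTX after sham surgery (background 21.2%), and 2 for SCI in CDTX muscle (background 1.83%), Pgam2 and Tpi1. The interaction was then called for 0 members by limma, with 4 at an unadjusted p under 0.05, against a background of 0.317%. The calls for CDTX after sham surgery that were absent in this fit were those of Slc2a4, Hk1, Pfkm, Aldoc, Tpi1, Pfkfb3, Gpd1, Pgam2, Pygm, Phka1, Phkg1 and Prkag3, while Slc16a3 was called with the opposite sign. With all 16 arrays and no score the interaction was called for 3 members.

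Glucose and lactate transport was represented by 3 carriers. All 3 were called lower with SCI in saline muscle, where 15.8% of all genes fell. Under median scaling the calls of Slc2a1 and Slc2a4 were lost, as given below. With the score 2 of the 3 were called there, and Slc2a1 was at -0.43 (adjusted p = 0.111). Slc2a1 encodes GLUT1, the basal glucose carrier of many cell types, and it rose with CDTX after SCI. Its level was 8.38, 8.32 and 8.43 in SCI+CDTX, 6.89, 6.68, 7.36 and 6.94 in SCI+Saline, 7.31, 6.97, 7.28 and 7.06 in Sham+CDTX, and 7.41, 7.12, 8.05 and 7.62 in Sham+Saline. The SCI+CDTX arrays lay above every array of the other groups. CDTX raised it 2.65-fold after SCI, a log2 fold change of 1.41 (SE 0.20, adjusted p = 1.87e-05), while after sham surgery the log2 fold change was -0.39 (SE 0.18, adjusted p = 0.0798). The interaction was 1.80 (SE 0.27, adjusted p = 1.16e-04), and SCI changed it by 1.22 in CDTX muscle and by -0.58 in saline muscle. The excluded SCI+CDTX replicate 2 had a level of 7.28, within the range of Sham+CDTX. With the score, the CDTX effect after SCI was 1.55 (adjusted p = 5.01e-05) and the interaction 0.44 (adjusted p = 0.734), while CDTX after sham surgery gave 1.11 (adjusted p = 0.109) and SCI in CDTX muscle 0.01 (adjusted p = 0.994). Without SCI+Saline replicate 2 the change in saline muscle was -0.48 (adjusted p = 0.0725), without Sham+Saline replicate 3 it was -0.41 (adjusted p = 0.0792), and under median scaling -0.18 (adjusted p = 0.617).

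Slc16a3 encodes MCT4, the carrier that exports lactate from glycolytic fibres. It was at 4.67, 4.44 and 4.62 in SCI+CDTX, 4.72, 5.38, 5.06 and 4.59 in SCI+Saline, 6.93, 7.19, 6.77 and 6.98 in Sham+CDTX, and 6.39, 6.38, 6.20 and 6.18 in Sham+Saline. Both SCI groups lay below both sham groups with no overlap, and the probe was detected on 2 of 3 SCI+CDTX and 3 of 4 SCI+Saline arrays. SCI lowered it 2.55-fold in saline muscle (log2 fold change -1.35, SE 0.16, adjusted p = 4.92e-06) and 5.22-fold in CDTX muscle (-2.39, SE 0.17, adjusted p = 5.46e-08). CDTX raised it after sham surgery by 0.68 (SE 0.16, adjusted p = 0.00174), and the interaction was -1.04 (SE 0.24, adjusted p = 0.00366). SCI+CDTX replicate 2 was at 6.44, near Sham+Saline. With the score, the change in CDTX muscle was -0.54 (adjusted p = 0.562), the CDTX effect after sham surgery was -1.61 (adjusted p = 0.0355), and the change in saline muscle was -1.59 (adjusted p = 2.32e-05). Slc2a4, which encodes the insulin-responsive carrier GLUT4, fell by 0.99 with CDTX after sham surgery (SE 0.26, adjusted p = 0.00401) and by 1.03 with SCI in saline muscle (SE 0.26, adjusted p = 0.006), with log2 fold changes of -0.31 and -0.34 in the other comparisons. Under median scaling these became -0.47 (adjusted p = 0.131) and -0.62 (adjusted p = 0.0669), and with the score the first was -1.40 (adjusted p = 0.173).

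The plot of fold changes by step sets both CDTX effects side by side.

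**Figure D1:**
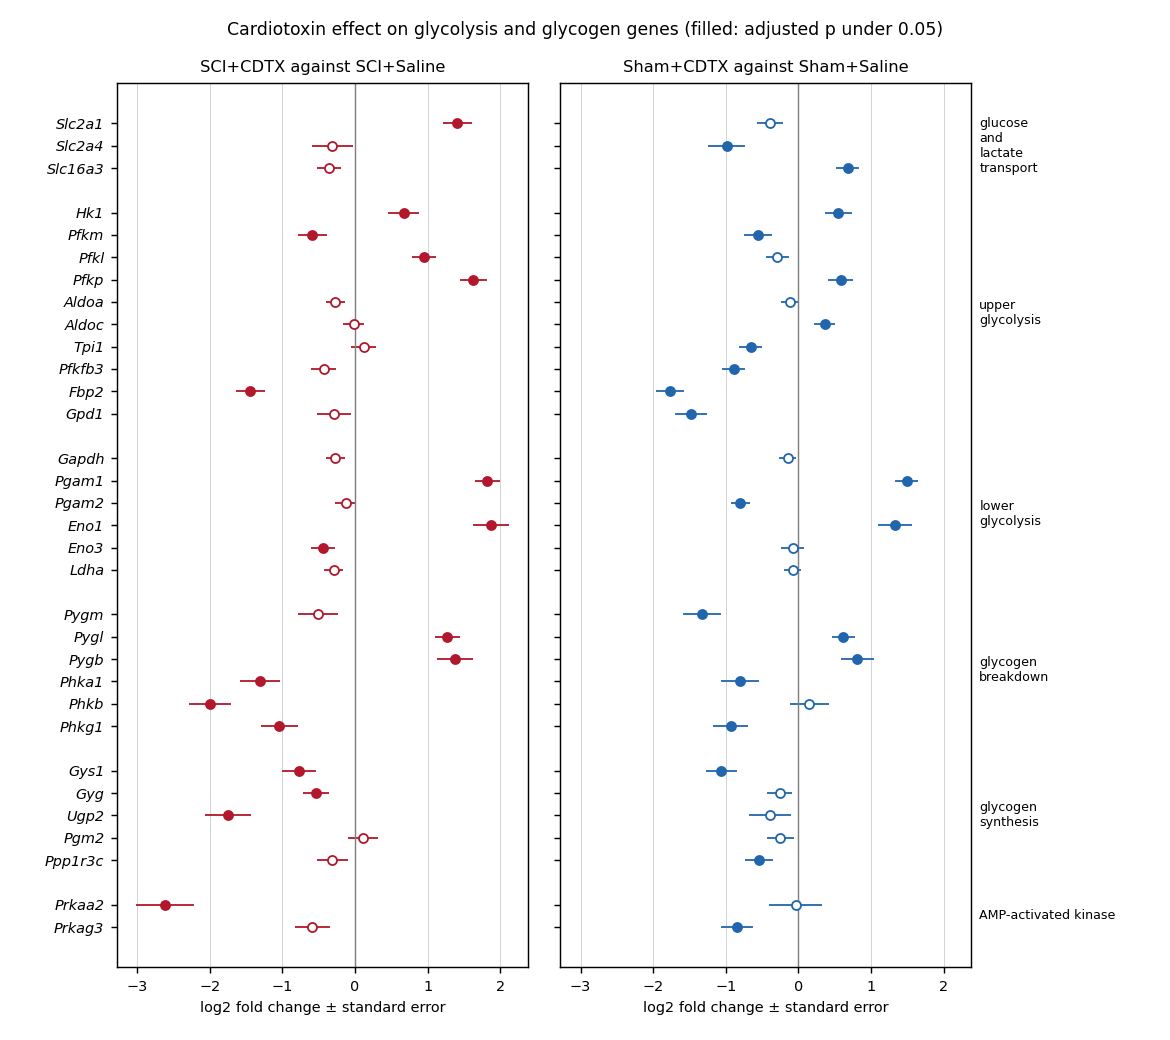
Log2 fold change (x axis, with standard error) of the brightest probe of each of the 32 tested members, grouped by step, for CDTX against saline after SCI (left, red, 3 against 4 arrays) and after sham surgery (right, blue, 4 against 4 arrays); filled points passed an adjusted p of 0.05. Pgam1 and Eno1 lie to the right of 0 in both panels and Fbp2 to the left in both, while Prkaa2, Phkb and Ugp2 are filled at -2.62, -2.00 and -1.75 in the left panel and open in the right one.

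In upper glycolysis 10 of 13 genes could be tested. With CDTX after SCI, Hk1, Pfkl and Pfkp rose and Pfkm and Fbp2 fell. After sham surgery Hk1 and Pfkp rose and Pfkm, Tpi1, Pfkfb3, Fbp2 and Gpd1 fell. Phosphofructokinase commits sugar to glycolysis, and its 3 isozyme genes differed. The platelet form Pfkp was at 6.63, 7.15 and 6.75 in SCI+CDTX, 5.00, 5.23, 4.98 and 5.65 in SCI+Saline, 6.03, 6.45, 6.53 and 6.47 in Sham+CDTX, and 6.04, 5.79, 5.71 and 5.62 in Sham+Saline. SCI+CDTX stood above all arrays of the other groups. CDTX raised it 3.09-fold after SCI (log2 fold change 1.63, SE 0.19, adjusted p = 3.44e-06) and 1.5-fold after sham surgery (0.58, SE 0.17, adjusted p = 0.00934), with an interaction of 1.05 (SE 0.26, adjusted p = 0.00597). SCI lowered it by 0.57 in saline muscle (SE 0.17, adjusted p = 0.0175), a change that was -0.24 (adjusted p = 0.345) under median scaling and -0.50 without SCI+Saline replicate 1 (adjusted p = 0.0573), without SCI+Saline replicate 3 (adjusted p = 0.0541) or without Sham+Saline replicate 1 (adjusted p = 0.0567). Pfkp's second probe gave 0.59 (adjusted p = 0.0235) for CDTX after SCI and 0.07 (adjusted p = 0.778) after sham surgery. Its interaction was 0.52 (adjusted p = 0.189). With the score the brightest probe had an interaction of -0.20 (adjusted p = 0.91).

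The liver form Pfkl was at 7.85, 8.18 and 8.04 in SCI+CDTX, 6.99, 6.56, 7.35 and 7.37 in SCI+Saline, 7.57, 7.61, 7.58 and 7.36 in Sham+CDTX, and 7.88, 7.84, 7.76 and 7.81 in Sham+Saline. SCI+Saline held the low arrays, and SCI+CDTX did not overlap with it. CDTX raised it by 0.95 after SCI (SE 0.17, adjusted p = 2.38e-04) against -0.29 (SE 0.16, adjusted p = 0.141) after sham surgery, an interaction of 1.25 (SE 0.24, adjusted p = 8.78e-04). SCI lowered it by 0.76 in saline muscle (SE 0.16, adjusted p = 0.00146). Its change of 0.49 with SCI in CDTX muscle (adjusted p = 0.0392) fell short of the threshold without any single array of SCI+CDTX replicates 3 or 4 or of Sham+CDTX, at 0.41 to 0.52. Median scaling gave 0.48 (adjusted p = 0.0431) for CDTX after sham surgery and -0.35 (adjusted p = 0.183) for SCI in saline muscle. With the score the interaction of Pfkl was 0.19 (adjusted p = 0.87) and its change with SCI in CDTX muscle -0.44 (adjusted p = 0.47).

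The muscle form Pfkm was at 13.59, 12.54 and 12.95 in SCI+CDTX, 13.40, 13.40, 13.92 and 13.72 in SCI+Saline, 13.27, 13.73, 13.56 and 13.69 in Sham+CDTX, and 14.16, 14.12, 14.10 and 14.09 in Sham+Saline. Sham+Saline lay above every array of the other groups, while SCI+CDTX and SCI+Saline overlapped. The log2 fold changes were -0.59 (SE 0.20, adjusted p = 0.025) and -0.56 (SE 0.19, adjusted p = 0.0195) for CDTX after SCI and after sham surgery, and -0.51 (SE 0.19, adjusted p = 0.0485) for SCI in saline muscle. These calls were near the threshold: without SCI+CDTX replicate 3 the first was -0.34 (adjusted p = 0.211), without SCI+CDTX replicate 4 it was -0.55 (adjusted p = 0.0806), without SCI+Saline replicate 3 it was -0.49 (adjusted p = 0.0755), and without Sham+CDTX replicate 1 the second was -0.47 (adjusted p = 0.0648). With the score they were -0.55 (adjusted p = 0.0672), -0.78 (adjusted p = 0.294) and -0.52 (adjusted p = 0.0605). The third lost its call without 11 single arrays of the 15, at -0.54 to -0.44. By Pfkm's second probe the same 3 changes were -0.43 (adjusted p = 0.122), -0.73 (adjusted p = 0.00529) and -1.10 (adjusted p = 4.35e-04). By its dimmest probe they were -1.76 (adjusted p = 1.51e-05), -1.68 (adjusted p = 4.74e-06) and -1.54 (adjusted p = 3.75e-05). For SCI in CDTX muscle the 3 probes gave -0.54 (adjusted p = 0.0518), -0.79 (adjusted p = 0.00962) and -1.61 (adjusted p = 5.71e-05).

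Triose phosphate isomerase, Tpi1, interconverts the triose phosphates. It was at 13.06, 12.91 and 13.16 in SCI+CDTX, 12.46, 12.79, 13.32 and 13.13 in SCI+Saline, 13.21, 13.40, 13.32 and 13.50 in Sham+CDTX, and 14.12, 14.02, 13.93 and 14.00 in Sham+Saline. Sham+Saline stood above the other groups with no overlap. CDTX lowered it by 0.66 after sham surgery (SE 0.16, adjusted p = 0.00215), SCI lowered it by 1.09 in saline muscle (SE 0.16, adjusted p = 4.86e-05), and the interaction was 0.77 (SE 0.24, adjusted p = 0.0223). Without SCI+CDTX replicate 4 the interaction was 0.70 (adjusted p = 0.0695), under median scaling 0.47 (adjusted p = 0.085) and with the score -0.06 (adjusted p = 0.97). The score gave 0.33 (adjusted p = 0.586) for CDTX after sham surgery and -1.04 (adjusted p = 0.0395) for SCI in CDTX muscle. Tpi1's second and dimmest probes had interactions of 0.36 (adjusted p = 0.224) and 0.29 (adjusted p = 0.444). For SCI in CDTX muscle without the score they gave -0.69 (adjusted p = 0.00193) and -0.24 (adjusted p = 0.383), and the brightest gave -0.32 (adjusted p = 0.19).

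Fbp2, the muscle fructose bisphosphatase that runs the phosphofructokinase step backward, fell with CDTX after both surgeries. Its level was 7.99, 7.97 and 8.56 in SCI+CDTX, 9.59, 9.82, 9.92 and 9.10 in SCI+Saline, 8.62, 8.65, 8.64 and 8.88 in Sham+CDTX, and 10.44, 10.12, 10.60 and 10.69 in Sham+Saline. Within each surgery all CDTX arrays lay below all saline arrays. The decrease was 2.71-fold after SCI (log2 fold change -1.44, SE 0.20, adjusted p = 1.96e-05) and 3.4-fold after sham surgery (-1.77, SE 0.19, adjusted p = 3.77e-07). SCI lowered it by 0.86 in saline muscle (SE 0.19, adjusted p = 0.00176), which under median scaling was -0.40 (adjusted p = 0.164).

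Gpd1, the cytosolic glycerol phosphate dehydrogenase that draws on triose phosphate, was at 7.07, 6.60 and 6.91 in SCI+CDTX, 6.96, 6.96, 7.03 and 7.65 in SCI+Saline, 7.87, 8.29, 7.46 and 7.93 in Sham+CDTX, and 9.76, 9.73, 9.06 and 8.92 in Sham+Saline. Sham+Saline was highest, and of the SCI arrays, whose groups overlapped each other, SCI+Saline replicate 4 reached into the range of Sham+CDTX. SCI lowered it 4.66-fold in saline muscle (log2 fold change -2.22, SE 0.22, adjusted p = 6.14e-07) and 2.04-fold in CDTX muscle (-1.03, SE 0.24, adjusted p = 0.00303). CDTX lowered it by 1.48 after sham surgery (SE 0.22, adjusted p = 1.93e-05), against -0.29 after SCI (SE 0.24, adjusted p = 0.354), with an interaction of 1.19 (SE 0.32, adjusted p = 0.0117). With the score the interaction was 0.68 (adjusted p = 0.62) and the change in CDTX muscle -1.47 (adjusted p = 0.0505), and CDTX after sham surgery gave -0.84 (adjusted p = 0.306).

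The remaining genes of this stretch moved less. Hk1, the hexokinase of most tissues, rose by 0.67 after SCI (SE 0.21, adjusted p = 0.0135) and by 0.55 after sham surgery (SE 0.19, adjusted p = 0.0234), from levels detected on 2 of 4 SCI+Saline and 1 of 4 Sham+Saline arrays. Without SCI+CDTX replicate 4 the first was 0.54 (adjusted p = 0.0777), and the second was 0.46 to 0.51 and short of the threshold without any single one of Sham+CDTX replicates 2 and 3 and Sham+Saline replicates 2, 3 and 4. Aldoa, the muscle aldolase, had log2 fold changes between -0.27 and -0.01 in all 4 comparisons and none passed; its probe ranked from 2 to 32 among all probes on an array by brightness. Aldoc, the aldolase of brain, was detected on 4 of 4 Sham+CDTX and 0 of 4 Sham+Saline arrays and on 1 array in each SCI group, so it passed the filter only through Sham+CDTX. Its call after sham surgery is therefore not read as a change, with group means of 4.66 and 4.31 and a value of 0.00 (adjusted p = 0.996) with the score. Pfkfb3, which makes the fructose bisphosphate that activates phosphofructokinase, fell by 0.89 with CDTX after sham surgery (SE 0.16, adjusted p = 1.52e-04).

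Lower glycolysis was tested in 6 of 8 genes, and Pgam1 and Eno1 rose with CDTX after both surgeries. Phosphoglycerate mutase has the brain form Pgam1 and the muscle form Pgam2. Pgam1 was at 7.81, 8.35 and 7.83 in SCI+CDTX, 5.83, 6.34, 6.10 and 6.44 in SCI+Saline, 7.76, 7.77, 7.87 and 7.96 in Sham+CDTX, and 6.53, 6.36, 6.34 and 6.18 in Sham+Saline. Every CDTX array lay above every saline array. CDTX raised it 3.53-fold after SCI (log2 fold change 1.82, SE 0.17, adjusted p = 7.27e-07) and 2.8-fold after sham surgery (1.49, SE 0.16, adjusted p = 4.19e-07), and the interaction was 0.33 (SE 0.23, adjusted p = 0.333). Pgam2 was at 12.67, 12.23 and 12.55 in SCI+CDTX, 12.49, 12.68, 12.72 and 12.55 in SCI+Saline, 12.81, 12.82, 12.74 and 12.92 in Sham+CDTX, and 13.72, 13.61, 13.52 and 13.66 in Sham+Saline. Sham+Saline stood above all other arrays. CDTX lowered Pgam2 by 0.80 after sham surgery (SE 0.13, adjusted p = 3.75e-05) and SCI lowered it by 1.01 in saline muscle (SE 0.13, adjusted p = 8.70e-06), while CDTX after SCI gave -0.13 (SE 0.14, adjusted p = 0.481). Its interaction of 0.67 (SE 0.19, adjusted p = 0.0132) was 0.34 (adjusted p = 0.23) under median scaling and -0.25 (adjusted p = 0.785) with the score, and the score gave -1.15 (adjusted p = 0.00989) for SCI in CDTX muscle and 0.23 (adjusted p = 0.671) for CDTX after sham surgery.

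The stretches upstream of both mutase genes are shown because, after sham surgery and without the score, Pgam1 was called higher and Pgam2 lower. They are the 250 bases before the annotated start in RefSeq's table (build GRCm38.p6), 5′ to 3′ on the gene's strand: Pgam1 at chr19:41911621-41911870 on the plus strand and Pgam2 at chr11:5803797-5804046 on the minus strand. The capitals mark a match to ACGTG, the core of the element bound by hypoxia-inducible factors, in Pgam1 and to the MEF2 consensus, the site of a muscle transcription factor family, in Pgam2.
Pgam1: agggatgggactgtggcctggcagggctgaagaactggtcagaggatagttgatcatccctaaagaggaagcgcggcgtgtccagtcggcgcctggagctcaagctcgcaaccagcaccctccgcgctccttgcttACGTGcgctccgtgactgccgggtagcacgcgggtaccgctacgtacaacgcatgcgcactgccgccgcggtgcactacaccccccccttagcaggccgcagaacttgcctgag
Pgam2: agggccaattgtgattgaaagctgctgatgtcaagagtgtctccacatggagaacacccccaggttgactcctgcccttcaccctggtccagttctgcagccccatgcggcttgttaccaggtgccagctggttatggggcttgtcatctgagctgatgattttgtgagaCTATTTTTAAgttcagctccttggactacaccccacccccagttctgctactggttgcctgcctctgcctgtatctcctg
Both strands were searched. ACGTG was found in 16.6% of all 32851 promoters of the table, and in the promoters of 15 of the 33 members that matched the table, against 4998 of all 27025 genes. The MEF2 consensus was found in 2.92% of all promoters and in those of 2 members, Pgam2 and Pfkfb1. The promoter windows of Eno1 and Eno3 held neither. Slc2a4 and Gpd1 had no entry.

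Enolase makes phosphoenolpyruvate. Eno1, the enolase of most tissues, was at 10.63, 11.26 and 10.72 in SCI+CDTX, 8.47, 9.33, 8.75 and 9.43 in SCI+Saline, 10.71, 10.79, 10.76 and 10.65 in Sham+CDTX, and 9.98, 9.60, 8.93 and 9.07 in Sham+Saline. All CDTX arrays lay above all saline arrays. CDTX raised it 3.66-fold after SCI (log2 fold change 1.87, SE 0.25, adjusted p = 1.40e-05) and 2.52-fold after sham surgery (1.33, SE 0.23, adjusted p = 1.06e-04). Eno3, the muscle enolase, was at 13.49, 12.69 and 13.06 in SCI+CDTX, 13.16, 13.60, 13.61 and 13.70 in SCI+Saline, 14.15, 14.18, 14.26 and 14.19 in Sham+CDTX, and 14.33, 14.23, 14.33 and 14.19 in Sham+Saline. The SCI arrays lay below the sham arrays with no overlap. SCI lowered Eno3 by 0.75 in saline muscle (SE 0.16, adjusted p = 0.00143) and by 1.12 in CDTX muscle (SE 0.17, adjusted p = 8.56e-05). For CDTX after SCI the value was -0.44 (SE 0.17, adjusted p = 0.047), and leaving out any one of 13 of the 15 arrays ended that call; the values without them ran from -0.44 to -0.24, and without SCI+CDTX replicate 3 it was -0.24 (adjusted p = 0.316). CDTX after sham surgery gave -0.08 (adjusted p = 0.725). The fit with the score gave -0.45 (adjusted p = 0.0709) for CDTX after SCI and -0.82 (adjusted p = 0.162) for SCI in CDTX muscle.

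Ldha, the lactate dehydrogenase subunit that prevails in glycolytic muscle, fell with SCI by 0.71 in saline muscle (SE 0.12, adjusted p = 2.12e-04) and by 0.92 in CDTX muscle (SE 0.13, adjusted p = 3.67e-05). The second was -0.29 (adjusted p = 0.639) with the score. Gapdh, which oxidises the triose phosphate, had log2 fold changes between -0.27 and 0.02 in the 4 comparisons and none passed, with probe ranks of 17 to 55 by brightness.

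**Figure D2:**
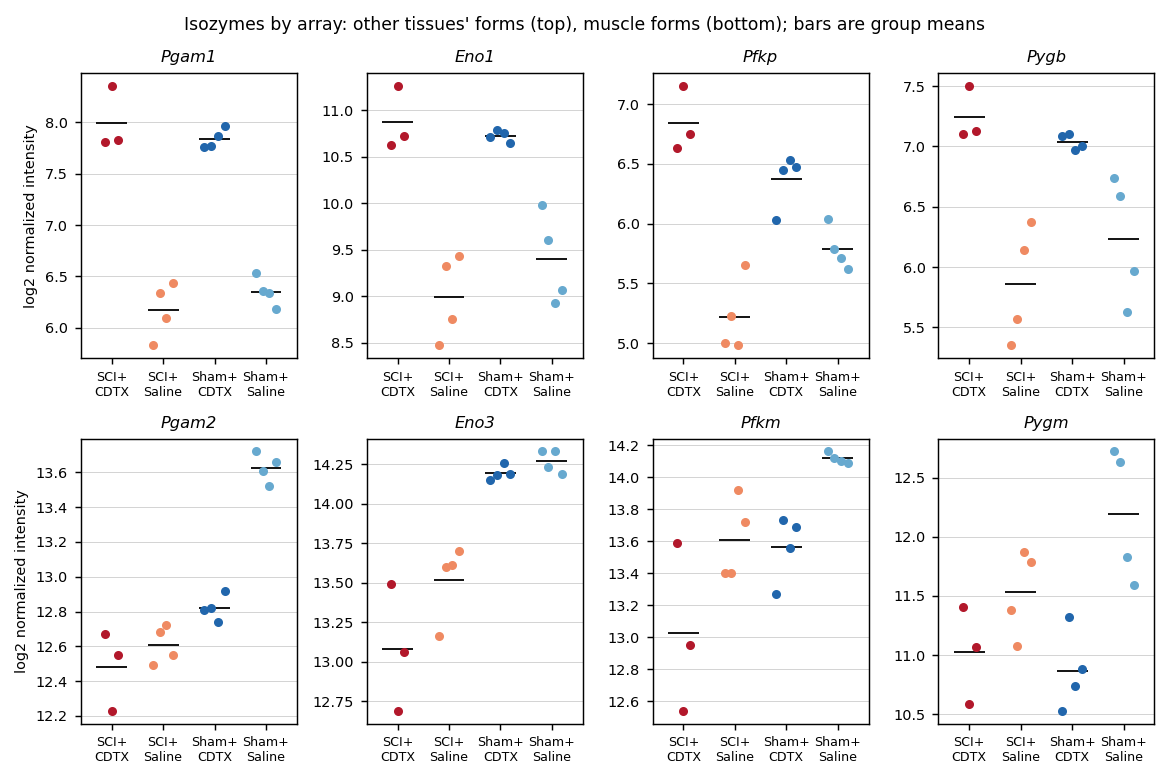
Log2 normalized intensity (y axis) of the brightest probe on each array for 4 isozymes that prevail outside muscle (top row) and their 4 muscle partners (bottom row), by group on the x axis; points are arrays (3 in SCI+CDTX, 4 in each other group) and bars are group means. In the top row the CDTX groups stand above the SCI+Saline arrays, as for Eno1, whose lowest CDTX array is at 10.63 and highest saline array at 9.98, and in the bottom row Sham+Saline is the highest group by its mean.

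Across the members, 9 were set down as forms that prevail outside muscle (Hk1, Pfkl, Pfkp, Aldoc, Pgam1, Eno1, Pygl, Pygb and Slc2a1) and 6 as muscle forms (Pfkm, Aldoa, Pgam2, Eno3, Pygm and Slc2a4), a split made after the values were seen and given as a description. With CDTX after SCI, 8 of the 9 rose (median log2 fold change 1.38), and of the 6 muscle forms 2 fell (median -0.37). Over all genes 22.1% rose and 22.2% fell there, so the share of muscle forms that fell is not far above the background. After sham surgery, where 23.8% of all genes rose and 26.8% fell, 7 of the 9 were called higher, Aldoc among them, with a median of 0.58, and 4 of the 6 fell, with a median of -0.68. With the score, 8 of the 9 rose after SCI (median 1.55) and 5 of the 9 after sham surgery (median 1.15), where 21.2% of all genes were called. For the 6 muscle forms 0 were then called by limma after either surgery, with medians of -0.27 and -0.39 and with 2 and 0 at an unadjusted p under 0.05. With SCI in saline muscle 4 of the 9 and 4 of the 6 fell, with medians of -0.40 and -0.71, against 15.8% of all genes that fell. The 16 macrophage markers rose in the same CDTX comparisons, with medians of 2.43 and 3.49, and the 14 muscle fibre markers had medians of 0.00 and -0.13.

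Glycogen breakdown was tested in all 6 of its genes. With CDTX and by the brightest probes, the phosphorylases of liver and brain rose after both surgeries, the phosphorylase kinase subunits Phka1 and Phkg1 fell after both, and Phkb fell after SCI. Pygl, the liver phosphorylase, was at 8.29, 8.52 and 8.34 in SCI+CDTX, 7.06, 6.62, 7.23 and 7.52 in SCI+Saline, 8.76, 8.65, 8.60 and 8.90 in Sham+CDTX, and 8.13, 8.02, 8.06 and 8.22 in Sham+Saline. SCI+Saline held the lowest arrays. CDTX raised it by 1.27 after SCI (SE 0.17, adjusted p = 1.56e-05) and by 0.62 after sham surgery (SE 0.16, adjusted p = 0.00357), and SCI lowered it by 1.00 in saline muscle (SE 0.16, adjusted p = 1.20e-04). Pygl's second probe gave 1.39 (adjusted p = 1.57e-04), -0.09 (adjusted p = 0.756) and -1.12 (adjusted p = 8.54e-04) for these, so it showed no rise after sham surgery. Its interaction was 1.48 (adjusted p = 0.00298), against 0.66 (adjusted p = 0.0512) by the brightest. Pygb, the brain form, rose by 1.38 (SE 0.25, adjusted p = 2.48e-04) and 0.81 (SE 0.23, adjusted p = 0.00755) with CDTX after SCI and after sham surgery. Pygm, the muscle phosphorylase whose loss causes McArdle disease, fell by 1.33 with CDTX after sham surgery (SE 0.26, adjusted p = 3.03e-04), against -0.51 after SCI (SE 0.28, adjusted p = 0.154); with the score the first was -0.37 (adjusted p = 0.734). Its level was 11.59 to 12.72 in Sham+Saline, 11.08 to 11.87 in SCI+Saline, 10.59 to 11.41 in SCI+CDTX and 10.53 to 11.32 in Sham+CDTX. SCI+Saline reached into the range of Sham+Saline, and the CDTX groups lay below it.

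Phosphorylase kinase is built of alpha, beta and gamma subunits with calmodulin and switches phosphorylase on. The muscle alpha subunit Phka1 was at 9.32, 7.87 and 8.49 in SCI+CDTX, 9.94, 9.83, 9.87 and 9.84 in SCI+Saline, 8.95, 10.27, 9.39 and 9.65 in Sham+CDTX, and 10.61, 10.47, 10.32 and 10.05 in Sham+Saline. SCI+CDTX lay below both saline groups. CDTX lowered it by 1.31 after SCI (SE 0.28, adjusted p = 0.00107) and by 0.80 after sham surgery (SE 0.26, adjusted p = 0.0174), and SCI lowered it by 1.01 in CDTX muscle (SE 0.28, adjusted p = 0.0113). The second was -1.98 (adjusted p = 0.0527) with the score, -0.59 (adjusted p = 0.0772) without Sham+CDTX replicate 1, -0.71 (adjusted p = 0.0514) without Sham+Saline replicate 1 and -0.34 (adjusted p = 0.272) under median scaling, and the third was -0.67 (adjusted p = 0.105) without SCI+CDTX replicate 3 and -0.02 (adjusted p = 0.993) with the score. Phka1's second and dimmest probes gave -1.10 (adjusted p = 0.00715) and -0.71 (adjusted p = 0.022) for CDTX after SCI. After sham surgery they gave -0.91 (adjusted p = 0.0122) and -1.73 (adjusted p = 3.51e-06). For SCI in CDTX muscle they gave -0.62 and -0.47, neither called. In saline muscle the 3 probes, from brightest to dimmest, gave -0.49, -0.44 and -1.49, the last called. Their interactions were -0.52, -0.19 and 1.02, the last called (adjusted p = 0.0278).

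The muscle gamma subunit Phkg1, the catalytic one, was at 9.34, 7.97 and 8.84 in SCI+CDTX, 9.45, 9.92, 9.76 and 9.89 in SCI+Saline, 10.10, 10.90, 10.31 and 10.53 in Sham+CDTX, and 11.62, 11.46, 11.56 and 10.93 in Sham+Saline. The 4 groups did not overlap in this order. CDTX lowered it 2.05-fold after SCI (log2 fold change -1.04, SE 0.26, adjusted p = 0.00342) and 1.91-fold after sham surgery (-0.93, SE 0.24, adjusted p = 0.00346). SCI lowered it 3.11-fold in saline muscle (-1.64, SE 0.24, adjusted p = 5.07e-05) and 3.34-fold in CDTX muscle (-1.74, SE 0.26, adjusted p = 6.61e-05), and the interaction was -0.10 (SE 0.36, adjusted p = 0.872). Fitted with the score, the values were -1.43 (adjusted p = 0.113) for CDTX after sham surgery and -1.30 (adjusted p = 0.147) for SCI in CDTX muscle.

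The beta subunit Phkb was low in SCI+CDTX. Its level was 8.16, 6.77 and 7.22 in SCI+CDTX, 9.75, 9.63, 9.22 and 8.94 in SCI+Saline, 9.17, 9.86, 9.46 and 9.82 in Sham+CDTX, and 9.24, 9.27, 10.05 and 9.14 in Sham+Saline. The 3 SCI+CDTX arrays lay below every array of the other groups, and those groups overlapped. CDTX lowered it 4.01-fold after SCI (log2 fold change -2.00, SE 0.29, adjusted p = 2.96e-05), against 0.15 after sham surgery (SE 0.27, adjusted p = 0.671), with an interaction of -2.15 (SE 0.40, adjusted p = 7.01e-04). SCI lowered it 4.58-fold in CDTX muscle (-2.19, SE 0.29, adjusted p = 1.99e-05), against -0.04 in saline muscle. The excluded SCI+CDTX replicate 2 was at 9.85, among the other groups, and with it the CDTX effect after SCI was -1.39 (adjusted p = 0.0205) and the interaction -1.54 (adjusted p = 0.121). With the score the CDTX effect was -2.37 (adjusted p = 3.35e-05) after SCI and -3.27 (adjusted p = 0.0047) after sham surgery, and the interaction was 0.90 (adjusted p = 0.596).

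Glycogen synthesis was tested in 5 of 6 genes. By the brightest probes and without the score, 0 of them rose by limma's test in any comparison of 2 groups, also at an unadjusted p under 0.05. Under median scaling Gyg (0.64) and Ugp2 (1.01) were higher with SCI in saline muscle. With SCI in CDTX muscle the second probe of Gyg rose by 0.63 (adjusted p = 0.0131). The score gave 1.31 (adjusted p = 0.184) for Ugp2 and 0.95 (adjusted p = 0.139) for Gyg there. Gys1, the muscle glycogen synthase, was at 5.23, 4.70 and 4.78 in SCI+CDTX, 6.11, 5.66, 5.62 and 5.30 in SCI+Saline, 5.34, 6.02, 5.69 and 5.68 in Sham+CDTX, and 7.27, 6.50, 6.85 and 6.34 in Sham+Saline. Sham+Saline was highest with no overlap, and SCI+CDTX was lowest with no overlap. CDTX lowered it by 0.77 after SCI (SE 0.23, adjusted p = 0.0105) and by 1.06 after sham surgery (SE 0.21, adjusted p = 3.95e-04), and SCI lowered it by 1.07 in saline muscle (SE 0.21, adjusted p = 8.30e-04) and by 0.78 in CDTX muscle (SE 0.23, adjusted p = 0.0142). The first was -0.66 (adjusted p = 0.0622) without SCI+CDTX replicate 3 and -0.51 (adjusted p = 0.0814) under median scaling, and the second -0.27 (adjusted p = 0.304) under median scaling. The change in CDTX muscle was -0.65 to -0.71 and not called without any single one of SCI+CDTX replicates 3 and 4 and Sham+CDTX replicate 2, and -0.28 (adjusted p = 0.823) with the score.

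Ugp2, which makes the UDP-glucose from which glycogen is built, was at 9.46, 7.74 and 8.51 in SCI+CDTX, 10.52, 10.92, 10.00 and 9.84 in SCI+Saline, 9.12, 9.71, 9.52 and 9.58 in Sham+CDTX, and 9.63, 9.71, 10.38 and 9.77 in Sham+Saline. SCI+CDTX lay below both saline groups and overlapped with Sham+CDTX. CDTX lowered it 3.36-fold after SCI (log2 fold change -1.75, SE 0.32, adjusted p = 2.28e-04), against -0.39 after sham surgery (SE 0.29, adjusted p = 0.288). With the score the CDTX effects were -2.10 (adjusted p = 7.38e-05) after SCI and -3.25 (adjusted p = 0.00457) after sham surgery. The interaction of -1.36 (SE 0.43, adjusted p = 0.0276) was -0.95 (adjusted p = 0.103) without SCI+CDTX replicate 3 and 1.15 (adjusted p = 0.477) with the score, and 5 further arrays, SCI+CDTX replicate 4, SCI+Saline replicates 1 and 2, Sham+CDTX replicate 2 and Sham+Saline replicate 1, each ended the call when left out (-1.33 to -1.15). The decrease of 0.91 with SCI in CDTX muscle (adjusted p = 0.0352) was -0.50 (adjusted p = 0.275) without SCI+CDTX replicate 3, -0.91 to -0.84 and not called without SCI+CDTX replicate 4 or Sham+CDTX replicates 2, 3 or 4, and 1.31 (adjusted p = 0.184) with the score. SCI+CDTX replicate 2 was at 10.45, near the top of all arrays.

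Gyg, the glycogenin that primes a new glycogen particle, fell by 0.54 with CDTX after SCI (SE 0.18, adjusted p = 0.0218). Without SCI+CDTX replicate 3 this was -0.32 (adjusted p = 0.19) and without replicate 4 it was -0.54 (adjusted p = 0.0556). With the score the CDTX effects on Gyg were -0.67 (adjusted p = 0.0162) after SCI and -1.64 (adjusted p = 0.0158) after sham surgery. Ppp1r3c, which targets protein phosphatase to glycogen, fell by 0.54 with CDTX after sham surgery (SE 0.19, adjusted p = 0.0281), and lost this call without any single one of Sham+CDTX replicate 1 and Sham+Saline replicates 1, 3 and 4, at -0.51 to -0.43, and under median scaling at -0.37 (adjusted p = 0.149). Pgm2, which is named Pgm1 in the current RefSeq table and moves phosphate between positions of glucose, fell by 0.52 with SCI in saline muscle (SE 0.19, adjusted p = 0.0441), a call lost without 9 single arrays (-0.55 to -0.42) and under median scaling (-0.10, adjusted p = 0.755).

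AMP-activated protein kinase senses low energy and promotes glucose uptake. Prkaa2 encodes its muscle catalytic subunit and had the lowest fold change of any member with CDTX after SCI. Its level was 5.99, 4.96 and 5.38 in SCI+CDTX, 8.60, 8.53, 7.96 and 7.17 in SCI+Saline, 6.84, 7.58, 8.59 and 7.89 in Sham+CDTX, and 7.51, 7.67, 8.65 and 7.24 in Sham+Saline. The SCI+CDTX arrays lay below all others, and the other groups overlapped. CDTX lowered it 6.16-fold after SCI (log2 fold change -2.62, SE 0.40, adjusted p = 4.31e-05), against -0.04 after sham surgery (SE 0.37, adjusted p = 0.935), with an interaction of -2.58 (SE 0.54, adjusted p = 0.00192). SCI lowered it 4.86-fold in CDTX muscle (-2.28, SE 0.40, adjusted p = 2.60e-04), against 0.30 in saline muscle (SE 0.37, adjusted p = 0.596). SCI+CDTX replicate 2 was at 8.12, inside the range of the other groups. With that array included the CDTX effect after SCI was -1.97 (adjusted p = 0.00775) and the interaction -1.92 (adjusted p = 0.107), and with the score the CDTX effects were -3.10 (adjusted p = 3.10e-05) after SCI and -3.96 (adjusted p = 0.00631) after sham surgery, with an interaction of 0.86 (adjusted p = 0.711).

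Prkag3, the regulatory gamma subunit of glycolytic muscle, was at 7.13, 6.06 and 6.57 in SCI+CDTX, 7.08, 7.26, 7.14 and 7.24 in SCI+Saline, 7.42, 7.59, 7.39 and 7.22 in Sham+CDTX, and 8.64, 8.66, 8.02 and 7.67 in Sham+Saline. Sham+Saline was highest, with no overlap. SCI lowered it by 1.07 in saline muscle (SE 0.22, adjusted p = 0.00114) and CDTX lowered it by 0.84 after sham surgery (SE 0.22, adjusted p = 0.00366), the latter -0.09 (adjusted p = 0.728) under median scaling and -1.43 (adjusted p = 0.0947) with the score. Its decrease of 0.82 with SCI in CDTX muscle (adjusted p = 0.0135) was -0.56 (adjusted p = 0.116) without SCI+CDTX replicate 3 and -0.29 (adjusted p = 0.831) with the score.

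**Figure D3:**
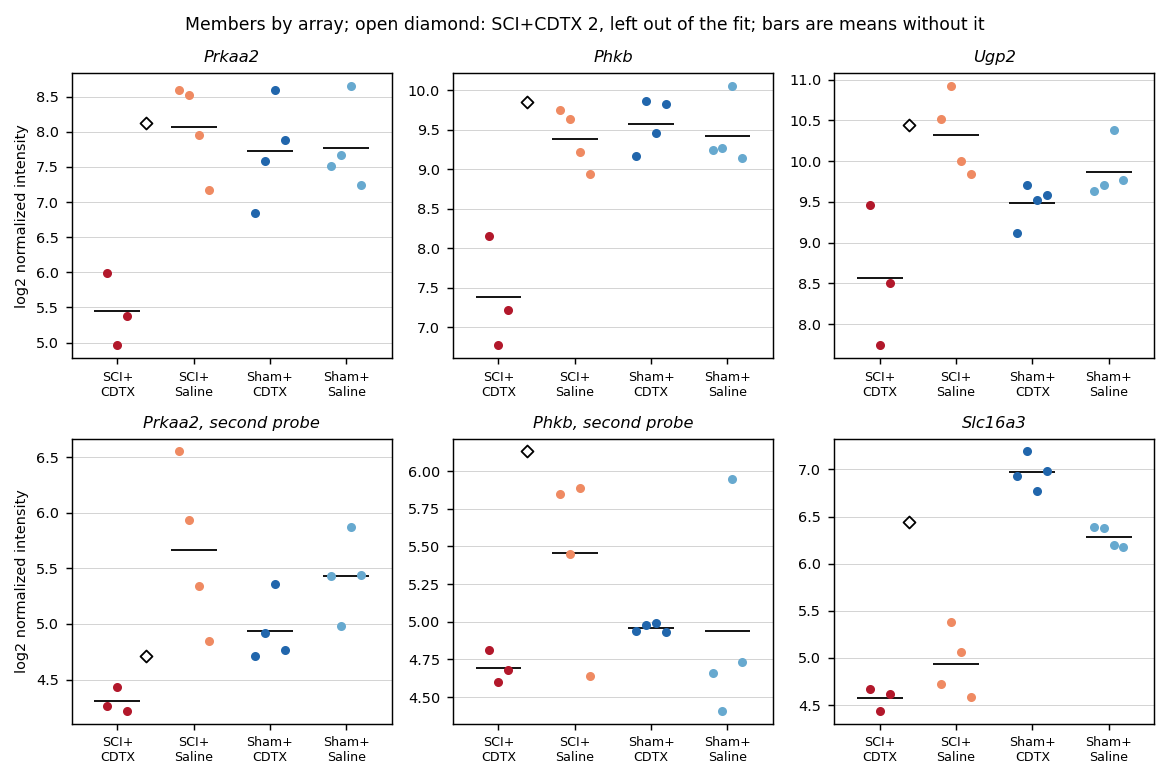
Log2 normalized intensity (y axis) on each array by group (x axis) for the brightest probes of Prkaa2, Phkb, Ugp2 and Slc16a3 and the second probes of Prkaa2 and Phkb; points are arrays, bars are means, and the open diamond is the excluded SCI+CDTX replicate 2 from a normalization of all 16 arrays. The diamond lies above the other SCI+CDTX arrays in every panel, at 8.12 against 4.96 to 5.99 for Prkaa2 and at 9.85 against 6.77 to 8.16 for Phkb.

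The effects of SCI, on which slide and surgery cannot be told apart, are plotted by step with and without the probe difference score.

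**Figure D4:**
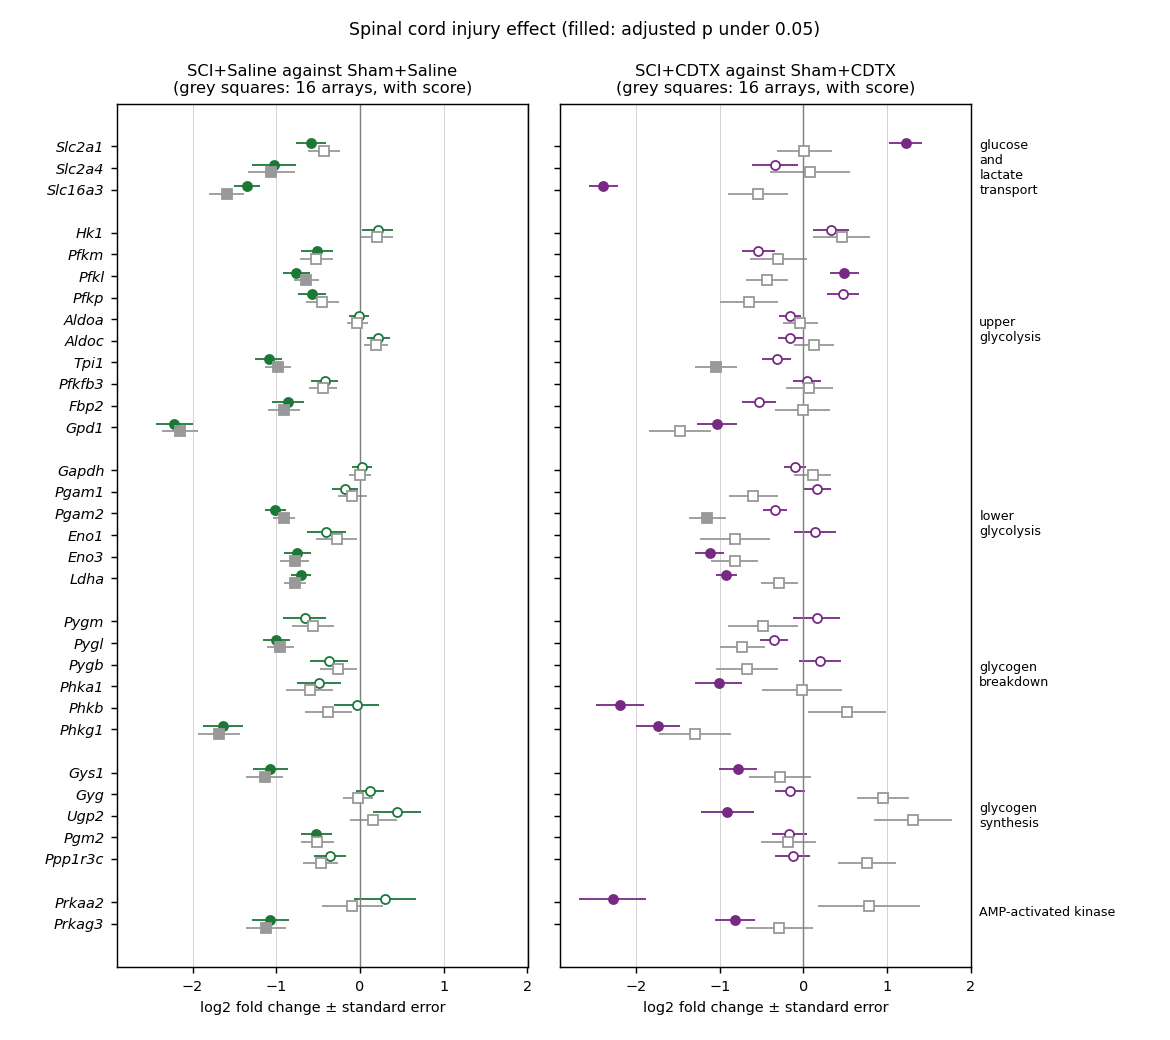
Log2 fold change (x axis, with standard error) for SCI against sham in saline muscle (left, green, 4 against 4 arrays) and in CDTX muscle (right, purple, 3 against 4 arrays) for the 32 tested members by step; grey squares are the fit on 16 arrays with the probe difference score, and filled symbols passed an adjusted p of 0.05. On the left circles and squares lie close together and the filled ones are all below 0, while on the right 13 circles but only the squares of Pgam2 and Tpi1 are filled.

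Agreement between probes could be checked in the 11 members with more than 1 detected probe. In these the second probe had the sign of the brightest one in 7 of 8 called genes for CDTX after SCI and in 7 of 7 for SCI in saline muscle. It was 5 of 7 for CDTX after sham surgery, 4 of 6 for SCI in CDTX muscle and 5 of 6 for the interaction. Over all 2754 genes with 2 detected probes the shares with the same sign were 91.3%, 86.2%, 83.6%, 71.6% and 73.9% in that order. Fewer second probes of members were themselves called with that sign by limma's test. These were 6 of 8, 4 of 7, 4 of 7, 1 of 6 and 0 of 6 in the same order, so 0 interaction calls were repeated. In no comparison were 2 probes of a member called in opposite directions. The array's annotation places Phkb at 8qC3, Slc16a3 at 11qE2, Gyg at 3qA2 and the brightest Prkaa2 probe at 4qC6. Sequences are given for the pairs of Prkaa2, Phkb, Slc16a3 and Gyg, whose values are compared next, as the first 30 of the 50 bases, 5′ to 3′.
Prkaa2, brightest probe: tgataacaggagcctaatctcccagcttcc
Prkaa2, second probe: gggtatggtaggtactgagtttagagcagc
Phkb, brightest probe: tacagaagtgccagtcagacagagctggga
Phkb, second probe: ggttgatgggcagggaagagaaattaaaga
Slc16a3, brightest probe: caaggaagccccatagttatcagccaccta
Slc16a3, second probe: gccacagcattcatacagcaggaagaaagg
Gyg, brightest probe: agagaaaacttgacacttacctgcaataga
Gyg, second probe: tgccatttgtgtataacctaagcagcattt

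The second probe of Prkaa2 was at 4.26, 4.43 and 4.22 in SCI+CDTX, where it was detected on 0 of 3 arrays, and at 6.55, 5.93, 5.34 and 4.85 in SCI+Saline. It was at least 2.22-fold lower in SCI+CDTX than in SCI+Saline, with a fitted log2 fold change of -1.37. Against Sham+CDTX the bound was 1.34-fold lower, but the fitted log2 fold change of -0.64 was not called (adjusted p = 0.114). For such a bound each dim array enters at its faintest detected signal, or at the probe's own signal where that is stronger. The second probe of Phkb had -0.77 for CDTX after SCI, also called, and -0.27 for SCI in CDTX muscle, not called, where the brightest had -2.19. Both pairs kept the sign of the brightest probe in these comparisons at a smaller size. The annotation gives no position for the second Prkaa2 probe, and whether it reads the same transcript as the brightest was not tested. Slc16a3's second probe was detected on 3 of 16 arrays and had 0.06 for SCI in CDTX muscle. The second probe of Gyg fell by 1.20 with CDTX after sham surgery, where the brightest had -0.26, and had 0.63 (adjusted p = 0.0131) for SCI in CDTX muscle, where the brightest had -0.16. Pfkl's second probe, dim on all arrays at 4.30 to 5.68, had -0.09 for CDTX after SCI, where the brightest had 0.95. Tpi1 and Pfkm, with 3 probes each, had every probe called lower for SCI in saline muscle and for CDTX after sham surgery.

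**Figure D5:**
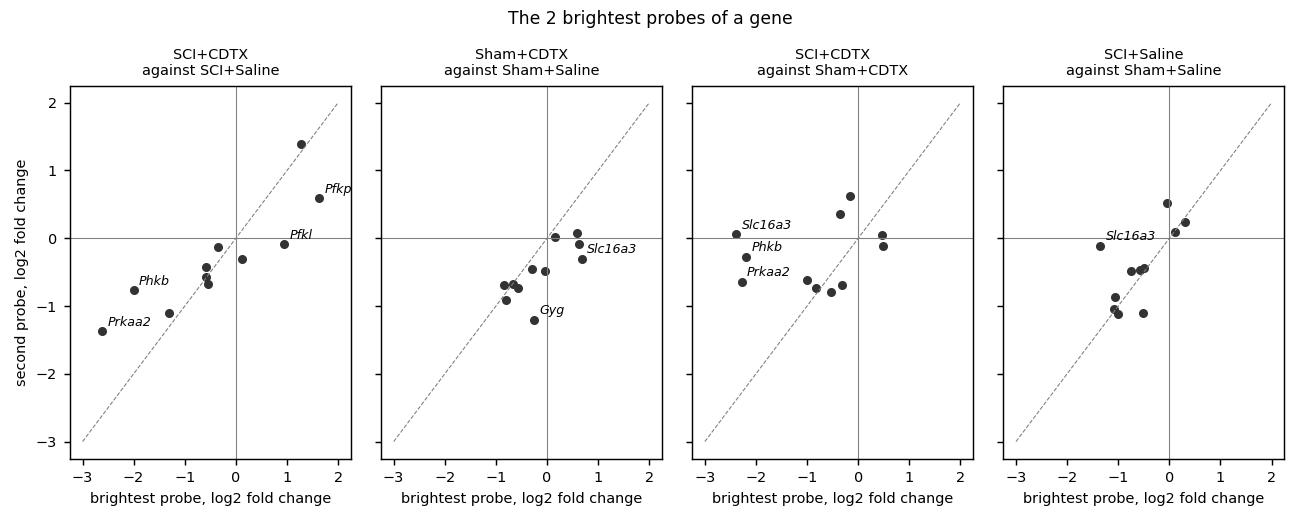
Log2 fold change of the second probe (y axis) against that of the brightest probe (x axis) for the 11 members with more than 1 detected probe, 1 panel for each of 4 comparisons; the dashed line marks equal values, and genes more than 0.8 apart are named. In the panel of SCI in CDTX muscle Slc16a3, Phkb and Prkaa2 lie left of the line, at -2.39, -2.19 and -2.28 by the brightest probe and at 0.06, -0.27 and -0.64 by the second.

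Genes of the same pathways outside the 39 were read from a fixed list. Of 18 tested genes of other glycolytic and pyruvate steps, 3 rose and 7 fell with CDTX after SCI (22.1% and 22.2% of all genes), and 3 rose and 8 fell after sham surgery (23.8% and 26.8% of all genes). Hk3, the hexokinase of leukocytes, rose by 2.50 (SE 0.34, adjusted p = 1.41e-05) and 2.86 (SE 0.31, adjusted p = 5.82e-07), and Pdk3, which inhibits pyruvate dehydrogenase, by 0.87 and 1.65. Pdk2, the pyruvate dehydrogenase kinase of many tissues, fell by 1.25 after SCI, Gpd2, the mitochondrial glycerol phosphate dehydrogenase, by 1.18, and Dlat, a subunit of pyruvate dehydrogenase, by 0.88. Eno2, the neuronal enolase, rose by 0.73 after SCI. After sham surgery the lowest were Pcx, pyruvate carboxylase, at -1.69, Txnip, an inhibitor of glucose uptake, at -1.54, and Pfkfb4, a regulator of phosphofructokinase, at -1.40, and Adpgk, an ADP-dependent glucokinase, rose by 0.70. For SCI in saline muscle 1 of the 18 rose and 5 fell (14.7% and 15.8% of all genes), with Dlat at -1.79, Gpd2 at -1.10 and Pdk2 at -0.82, and Eno2 at 0.49. In CDTX muscle 3 rose and 7 fell (16.5% and 15.7% of all genes), led by Txnip at 1.28, Eno2 at 1.07 and Pfkfb4 at 0.58, and by Pdk2 at -1.68, Dlat at -1.30 and Gpd2 at -1.29. With the score 0 of the 18 were called by limma for SCI in CDTX muscle (1.83% of all genes called), with 0 at an unadjusted p under 0.05, and 2 rose and 5 fell for CDTX after sham surgery (21.2% of all genes called).

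Of 9 tested genes of other glycogen steps, 0 rose and 5 fell with CDTX after SCI by limma's test (22.1% and 22.2% of all genes), and 0 rose and 3 fell after sham surgery (23.8% and 26.8% of all genes), with 0 higher at an unadjusted p under 0.05 in both. Nhlrc1, a ubiquitin ligase of glycogen quality control, fell by 0.97 and 1.22, and Ppp1cb, a catalytic subunit of protein phosphatase, by 0.92 and 0.78. Gaa, the lysosomal enzyme that degrades glycogen, fell by 0.80 after SCI, and Epm2a, the glycogen phosphatase laforin, by 0.86 after sham surgery. SCI in saline muscle raised Stbd1, a glycogen-binding protein, by 0.99 and Gaa by 0.61 and lowered Epm2a by 0.82. In CDTX muscle 0 of the 9 were called by limma (32.2% of all genes called), and 0 were under an unadjusted p of 0.05. Of 7 tested genes around AMP-activated kinase, Camkk2, an upstream kinase, rose with CDTX by 0.74 and 0.78, Prkab1, a beta subunit, rose by 0.44 after SCI, and Prkab2, the muscle beta subunit, fell by 0.88 after SCI. Stk11, the upstream kinase LKB1, and Prkag1, a gamma subunit, fell by 0.81 and 0.64 after sham surgery. SCI lowered Prkab2 by 0.76 in saline and by 1.08 in CDTX muscle, and in saline muscle it lowered Prkag1 by 0.64 and raised Tbc1d1, a regulator of glucose carrier traffic, by 0.60. With the score 0 of the 9 glycogen genes and 0 of these 7 were called by limma for SCI in CDTX muscle (1.83% of all genes called), with 1 and 0 at an unadjusted p under 0.05. For CDTX after sham surgery (21.2% of all genes called) 2 of the 9 fell, and 0 of the 7 were called, with 3 at an unadjusted p under 0.05.

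The interaction, called for 25.5% of all genes, was called for 5 of the 18 other glycolytic and pyruvate genes, 3 positive and 2 negative, with Txnip at 1.28, Pcx at 1.10 and Pfkfb4 at 0.94 and with Adpgk at -0.81 and Pdk3 at -0.78. It was also called for Stbd1 (-0.75) and Prkag1 (0.93). With the score the interaction was called by limma for 0 of the 18, 0 of the 9 and 0 of the 7 genes, with 4, 1 and 0 at an unadjusted p under 0.05, against 0.317% of all genes.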

How the data were processed

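The members and gene lists were chosen with earlier results of these data known. The authors' deposited table gives, per the file headers, the mean bead intensity of every probe before any normalization or background subtraction, beside a detection p-value; the headers name GSGX 1.9.0 and the submitters' processing notes GenomeStudio 2011.1. The authors' final values, deposited as normalized intensity with a difference p-value, served as an alternative (ratios of their group means); any correction of that p-value is not stated. The genome build of the array annotation is not given in the sources used here.

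Intensities of 15 arrays were background-corrected and quantile normalized with neqc (limma 3.58.1, R 4.3.3, data.table version 1.17.8), with an offset of 16 before log2, which understates changes of dim probes. A probe was kept if 3 or more arrays gave it a detection p below 0.05, which left 14763 probes for 10936 gene symbols. A gene was read from its brightest kept probe. All kept probes entered 1 linear model of 4 group means (limma's lmFit and eBayes), and p-values were Benjamini-Hochberg adjusted per comparison over all kept probes. The number of arrays limits the precision. No 2 arrays held identical values (0 pairs). On simulated data with 14763 probes the test recovered 83% of log2 changes of 1 for CDTX after SCI, 88% for SCI in CDTX muscle and 49% for the interaction. There 100 probes were changed by 1 and 100 by 2, in SCI+CDTX alone and with independent noise. Far larger shares of genes were called in the data, so these rates do not measure the power reached here. 

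Values per array are given for members called in at least 3 of the 5 comparisons or with one of the 2 largest fold changes of their step; of other pathway genes, up to 3 highest and 3 lowest called. Alternatives were other scaling, filters, model settings, left-out arrays, second probes, the excluded array and the probe difference score; a strict score, limited to probes with a detection p under 0.01 on all arrays, was added after seeing the data.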

Additional observations from a re-analysis of the deposited data

Results flagged for a closer look

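In 128 groups of 4 arrays (32 genes in 4 groups, the excluded array included), 11 arrays stood apart from the others by Dixon's criterion, which chance meets in about 1 of 20 groups. SCI+CDTX replicate 2 did so for Slc2a1, at 7.28 against 8.36 to 8.46, and for Slc16a3, at 6.44 against 4.45 to 4.69. The remaining 9 were Hk1 in Sham+Saline replicate 1 (5.11), Pfkl in Sham+CDTX replicate 4 (7.36), Pfkp in Sham+CDTX replicate 1 (6.03), Fbp2 in Sham+CDTX replicate 4 (8.88), Gpd1 in SCI+Saline replicate 4 (7.65), Ldha in Sham+Saline replicate 3 (13.92), Phkb in Sham+Saline replicate 3 (10.05), Pgm2 in SCI+CDTX replicate 3 (11.75) and Ppp1r3c in Sham+CDTX replicate 1 (11.84).

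The CDTX effect differed between SCI and sham mice by the interaction test for 10 of the 32 tested members, against 25.5% of all genes. The share of members is not far above that background. The interaction was positive for Slc2a1 (1.80), Pfkl (1.25), Gpd1 (1.19), Pfkp (1.05), Tpi1 (0.77) and Pgam2 (0.67), and negative for Prkaa2 (-2.58), Phkb (-2.15), Ugp2 (-1.36) and Slc16a3 (-1.04). None of the 10 was called once the probe difference score entered the model.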

How the results depend on the processing

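With fewer than 5 arrays per group, leaving out 1 array in turn gave 14 to 19 members called for CDTX after SCI, 17 to 21 after sham surgery, 8 to 15 for SCI in CDTX muscle (8 without SCI+CDTX replicate 3), 14 to 17 in saline muscle and 8 to 11 for the interaction. With all 16 arrays the interaction was called for 3 members. It was called for 5 when the 11 members with several kept probes were read from the second and the others from their only one. Of these 5 calls by limma, only that of Pygl came from a second probe (1.48, adjusted p = 0.00298). With the score, 13, 2 and 0 members were called for CDTX after sham surgery, SCI in CDTX muscle and the interaction, and with the strict score 3 and 0 for the last pair of these; the cause was not tested. The replicate block gave 18, 21, 11, 15 and 10 called members. After each group's mean was subtracted, same-numbered arrays of different groups correlated at -0.27 to 0.38, over 0.1 in 3 of 21 pairs. Arrays with different numbers were not set beside these, so whether the numbers pair the arrays is not settled. Every other count stayed within 1.5 times.

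Signs turned in these values, with the cause not tested. With the score, for CDTX after sham surgery: Slc16a3 -1.61, Aldoc 0.00, Tpi1 0.33, Pgam2 0.23 and Phkb -3.27; for SCI in CDTX muscle: Pfkl -0.44, Phkb 0.52, Ugp2 1.31 and Prkaa2 0.78; for the interaction: Slc16a3 1.05, Pfkp -0.20, Tpi1 -0.06, Pgam2 -0.25, Phkb 0.90, Ugp2 1.15 and Prkaa2 0.86. With the strict score, for CDTX after sham surgery: Slc16a3, which fell by 1.00, and Phkb -2.38; for SCI in CDTX muscle: Pfkl -0.41, Phka1 0.11, Phkb 0.55, Ugp2 1.31 and Prkaa2 0.80; for the interaction: Slc16a3 0.92, Pfkp -0.16, Pgam2 -0.12, Phkb 0.73, Ugp2 0.98 and Prkaa2 0.66. Median scaling turned Pfkl for CDTX after sham surgery (0.48). Second probes gave -0.09 for Pfkl with CDTX after SCI, -0.30 for Slc16a3 and -0.09 for Pygl after sham surgery, 0.06 for Slc16a3, -0.12 for Pfkl and 0.63 for Gyg with SCI in CDTX muscle, and 0.16 for the interaction of Slc16a3.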

Other observations

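The pentose phosphate pathway branches from glycolysis at glucose 6-phosphate and supplies NADPH and ribose, and all 8 listed genes were tested. With CDTX after SCI 4 rose and 2 fell (22.1% and 22.2% of all genes). G6pdx, the first enzyme of the pathway, rose by 1.26 (SE 0.18, adjusted p = 3.09e-05), Tkt, transketolase, by 1.17 (SE 0.22, adjusted p = 3.55e-04) and Pgls, the lactonase, by 0.96 (SE 0.18, adjusted p = 3.30e-04), while Rpe, an epimerase, fell by 1.15 (SE 0.18, adjusted p = 7.41e-05) and Rpia, an isomerase, by 0.63 (SE 0.16, adjusted p = 0.00335). After sham surgery, where 23.8% of all genes rose and 26.8% fell, 2 of the 8 rose, G6pdx by 0.94 and Pgd by 0.70, and 3 fell, Pgls by 1.01, Rpe by 0.67 and Tkt by 0.57. The interaction was called for Pgls (1.98, SE 0.25, adjusted p = 2.88e-05) and Tkt (1.73, SE 0.30, adjusted p = 4.51e-04), against 25.5% of all genes.

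For SCI in saline muscle (14.7% of all genes higher and 15.8% lower) 3 of these genes rose, Pgd by 1.06, H6pd by 0.61 and Rpia by 0.45, and Tkt fell by 0.57. For SCI in CDTX muscle (16.5% of all genes higher and 15.7% lower) 5 rose, led by Pgls at 1.73, Tkt at 1.16 and Pgd at 1.00, and Rpe fell by 0.65. Sham+CDTX, in which the probe difference score was 3.46 to 3.89, enters the second of these comparisons and the interaction. With the score in the model, limma called 0 of the 8 genes for SCI in CDTX muscle, at log2 fold changes of -0.57 to 0.20, and 0 for the interaction, at -1.03 to 0.38, with 1 and 3 at an unadjusted p under 0.05. Of all genes 1.83% and 0.317% were called in these fits. For CDTX after sham surgery 4 of the 8 then rose and 1 fell, against 21.2% of all genes called.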
